A study of Drosophila melanogaster with 4 samples.

Results

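The 8 genes described here make or move monoamine transmitters in the fly: *ple*, *Ddc*, *Trhn*, *Tdc2*, *Tbh*, *Vmat*, *DAT* and *SerT*. They were chosen by name for these functions, with no threshold on a measured value, and they are 8 of the 13608 genes in the count table. The RNA came from heads of adult *Drosophila melanogaster* and was sequenced with 3′-seq, a method that reads each polyadenylated RNA from its 3′ end. By the paper's methods it was extracted from head powder cross-linked with UV light, after the lysate had been cleared by centrifugation. All 4 libraries belong to 1 group of untreated wild-type flies raised at 25 °C, so there was no second condition to compare with. The study used *w1118*, a white-eyed laboratory stock, as its wild type, although the labels give only "wild type" for these libraries. The design text speaks of independent wild-type lines while the sample names speak of replicates, and the 4 libraries are called replicates 1 to 4 here. Every spread given below is therefore the spread between these 4 libraries, whose biological and technical parts cannot be told apart.

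Monoamines are small transmitters made from amino acids. In dopamine neurons, tyrosine is hydroxylated by the product of *ple* and decarboxylated by that of *Ddc*, and serotonin neurons use *Trhn* followed by the same decarboxylase. A separate route, through *Tdc2* and *Tbh*, makes tyramine and then octopamine, the invertebrate relative of noradrenaline. *Vmat* loads all of these amines into vesicles, and *DAT* and *SerT* take dopamine and serotonin back up after release. In the fly *ple* and *Ddc* also serve the cuticle, which is hardened and coloured by dopamine derivatives.

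The libraries held 13434565, 11121829, 8753359 and 10680411 counts. Levels are given as CPM, the counts of a gene per 1000000 counts of its library. Each RNA contributes reads from its end only, so levels were not divided by transcript length. 2 libraries stood apart in different ways. In replicate 1 the genes of the male accessory gland reached a sum of 544 CPM and those of the midgut 742 CPM. In replicates 2 to 4 the accessory gland genes summed to 7.01, 16.8 and 95.4 CPM and the midgut genes to between 99.1 and 148 CPM. Replicate 3 was the least alike over all genes above the count minimum given below, with Spearman coefficients across genes, which are not independent, of 0.880, 0.909 and 0.870 to replicates 1, 2 and 4, against 0.906 to 0.936 among those. In the accessory gland list 5 of 8 genes, and in the eggshell list 5 of 7 genes, had 0 counts in at least 1 replicate, and the eggshell list summed to between 3.28 and 23.8 CPM. The neuron markers were all present, at 3282, 3194, 4112 and 2802 CPM in sum for 6 genes, as were the photoreceptor markers (20200 to 30454 CPM for 5 genes) and the glial markers (573 to 1143 CPM for 5 genes). Without replicate 1 the summed level of the 8 monoamine genes was 311 CPM and without replicate 3 it was 349 CPM, against 317 ± 71.6 CPM (SD, n = 4) with all.

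All 8 genes passed a minimum of 10 counts in each of the 4 replicates, which 57% of the genes in the table did. They spanned a wide range, from 166 CPM for *Vmat* to 3.88 CPM for *DAT*. The median of their mean levels was 15.9 CPM, below the median of 25.4 CPM over the 7754 genes that passed, and 3 of the 8 (*Vmat*, *Ddc* and *ple*) lay above that median. In bulk head RNA a gene used by fewer cells and a gene with less RNA per cell cannot be told apart.

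**Figure D1:**
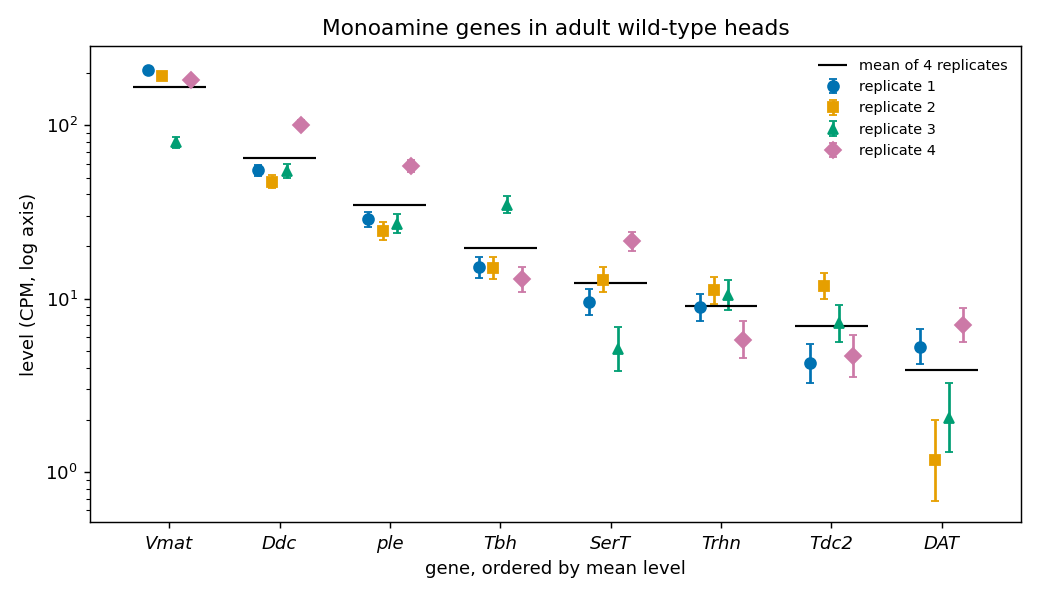
Level of each monoamine gene in CPM on a log axis, with 1 point per replicate, its 95% Wilson interval, and a bar at the mean of the 4 replicates. *Vmat* and *Ddc* are the highest in every replicate, while the points of *SerT*, *Trhn*, *Tdc2* and *DAT* interleave between 1.17 and 21.4 CPM.

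*ple* (FBgn0005626, 3L from 6713356 to 6719525, minus strand) encodes tyrosine hydroxylase, the rate-limiting enzyme of dopamine synthesis. It had 385, 273, 237 and 624 counts in replicates 1 to 4, or 28.7, 24.5, 27.1 and 58.4 CPM. Replicates 1 to 3 lay close together and replicate 4 stood above them, at 2.18 times their mean. The mean was 34.7 ± 15.9 CPM (SD, n = 4), at percentile 58.9 of the genes above the count minimum. The annotation gives *ple* 2 ends 682 bp apart, whose reads are summed in these counts.

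*Ddc* (FBgn0000422, 2L from 19116483 to 19120306, minus strand) encodes the aromatic amino acid decarboxylase of both the dopamine and the serotonin pathway. It had 741, 527, 478 and 1075 counts, or 55.2, 47.4, 54.6 and 101 CPM. The picture was that of *ple*: replicates 1 to 3 were close and replicate 4 was high, at 1.92 times their mean. The mean was 64.4 ± 24.4 CPM (SD, n = 4), at percentile 74.3. The 3′ end of *Ddc* overlaps an exon of *CG10561* on the opposite strand over 88 bp, and whether the counting used strand is not given in the sources used here. *CG10561* was counted at 43.8, 46.2, 36.0 and 40.2 CPM, without the high value in replicate 4.

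*Trhn* (FBgn0035187, 3L from 1190384 to 1193173, minus strand) encodes the neuronal tryptophan hydroxylase, the enzyme that commits tryptophan to serotonin. It had 120, 124, 92 and 62 counts, or 8.93, 11.1, 10.5 and 5.81 CPM. Replicate 4, where *ple* and *Ddc* were highest, was the lowest for *Trhn*, at 0.569 times the mean of the other replicates. The mean was 9.10 ± 2.39 CPM (SD, n = 4), at percentile 19.1, and the highest value was 1.92 times the lowest, the narrowest range of the 8 genes. Its end overlaps *CG13912* on the opposite strand over 89 bp, a gene counted at 53.5 to 63.4 CPM. If the counting ignored strand, reads of the pair cannot be told apart.

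*Tdc2* (FBgn0050446, 2R from 6684745 to 6689974, minus strand) encodes the neuronal tyrosine decarboxylase that makes tyramine. It had 57, 132, 63 and 50 counts, or 4.24, 11.9, 7.20 and 4.68 CPM. Replicate 2 was the highest, at 2.21 times the mean of the others, and replicates 1 and 4 were low. The mean was 7.0 ± 3.50 CPM (SD, n = 4), at percentile 13.6. The gene lies within the span of *Rpp25* on the opposite strand with no shared exon, and *Rpp25* was counted at 11.7, 17.4, 19.3 and 13.3 CPM.

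*Tbh* (FBgn0010329, X from 7995697 to 8027394, plus strand) encodes tyramine β-hydroxylase, which turns tyramine into octopamine. It had 204, 167, 305 and 138 counts, or 15.2, 15.0, 34.8 and 12.9 CPM. Replicate 3 alone was high, at 2.42 times the mean of the others, although it was the smallest library. The mean was 19.5 ± 10.3 CPM (SD, n = 4), at percentile 41.3. *Tbh* was above *Tdc2* in 4 of 4 replicates, by 3.56, 1.26, 4.81 and 2.74 times, so the later enzyme of the octopamine route was the higher, by a factor that itself varied.

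*Vmat* (FBgn0260964, 2R from 13513132 to 13534251, minus strand) encodes the vesicular monoamine transporter, shared by dopamine, serotonin, tyramine and octopamine neurons. It had 2791, 2154, 699 and 1954 counts, or 208, 194, 79.9 and 183 CPM. It was the highest of the 8 in every replicate, with replicate 3 well below the rest at 0.41 times their mean. The mean was 166 ± 58.4 CPM (SD, n = 4), at percentile 88.4. *Vmat* alone made up 62.1, 61.0, 36.1 and 46.4% of the summed level of the 8 genes. Its 4 annotated transcripts have 3 ends spread over 5107 bp, and the 3 genes that overlap it were at 1.12 CPM or less in every replicate. The *Vmat* end lies 19 bp from *mip120* on the opposite strand. *mip120* was counted at 14.7, 7.91, 4.34 and 4.87 CPM, also highest in replicate 1 and lowest in replicate 3. Whether reads of *mip120* were counted for *Vmat* was not tested.

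*DAT* (FBgn0034136, 2R from 16558567 to 16565238, minus strand) encodes the dopamine transporter of the plasma membrane. It had 71, 13, 18 and 75 counts, or 5.28, 1.17, 2.06 and 7.02 CPM. The replicates fell into a high pair, 1 and 4, and a low pair, 2 and 3, and the 95% Wilson intervals of the pairs were apart: replicate 1 spanned 4.19 to 6.67 CPM and replicate 3 spanned 1.30 to 3.25 CPM. These intervals cover counting error only, since reads amplified by PCR are not independent molecules. The *DAT* end lies 80 bp from *Syn2* on the opposite strand. *Syn2* was counted at 30.2, 16.7, 17.8 and 30.9 CPM, with the same high and low pairs. Replicates 1 and 4 were the most alike over all genes above the count minimum, with a Spearman coefficient of 0.936. The share of all genes with this split was not computed. Whether reads of *Syn2* were counted for *DAT* was not tested. The mean was 3.88 ± 2.74 CPM (SD, n = 4), at percentile 4.8, and the highest replicate was 6.01 times the lowest, the widest range of the 8.

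*SerT* (FBgn0010414, 2R from 24404595 to 24411074, minus strand) encodes the serotonin transporter of the plasma membrane. It had 128, 143, 45 and 229 counts, or 9.53, 12.9, 5.14 and 21.4 CPM. Replicate 4 was the highest and replicate 3 the lowest, 4.17 times apart. The mean was 12.2 ± 6.90 CPM (SD, n = 4), at percentile 27.1. *Trhn*, the synthesis enzyme of the same transmitter, had its lowest value where *SerT* had its highest. The *SerT* end lies 67 bp from *Rpn8* on the opposite strand. *Rpn8* was counted at 64.2, 96.0, 26.2 and 81.7 CPM, also lowest in replicate 3. Whether reads of *Rpn8* were counted for *SerT* was not tested.

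**Figure D2:**
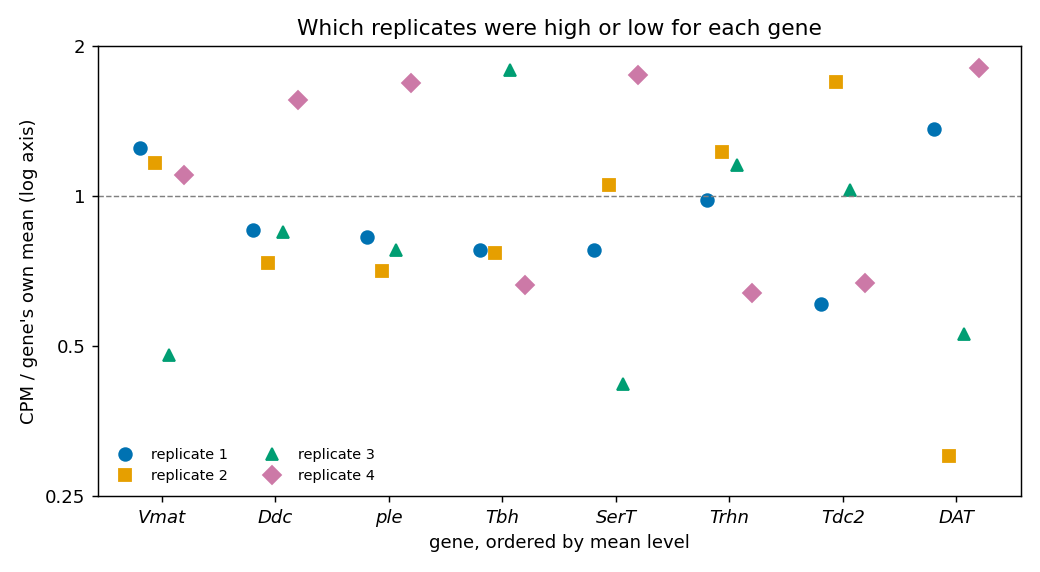
CPM of each monoamine gene in each replicate divided by the mean of that gene over the 4 replicates, on a log axis, with the dashed line at 1. Replicate 4 is the highest for *Ddc*, *ple*, *SerT* and *DAT*, replicate 3 is the highest for *Tbh* and the lowest for *Vmat* and *SerT*, and replicate 2 is the highest for *Trhn* and *Tdc2*.

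No single replicate was high or low for all 8 genes. Replicate 4 held the highest value of 4 of them, against 29.1% of all genes above the count minimum. Replicate 2 held the highest value of *Trhn* and *Tdc2* (17.3% of all genes), replicate 3 that of *Tbh* (18.3%) and replicate 1 that of *Vmat* (35.3%). Scaling changed this for *Vmat* and *Trhn* alone: with TMM or DESeq2 size factors *Vmat* was highest in replicate 2 and *Trhn* in replicate 3, and set against the neuron markers or *elav* *Vmat* was highest in replicate 4. The highest replicate was at least 2 times the lowest in 7 of the 8 genes, against 55.1% of all genes, *Trhn* being the exception. The Wilson intervals of the highest and the lowest replicate were apart in 8 of 8, as they were in 95.7% of all genes, so counting error alone rarely covered the spread anywhere in these libraries. The biological coefficient of variation, an estimate of the spread left after counting noise (edgeR), had a median of 0.442 over the 8 genes and 0.376 over all genes. It was above the trend for genes of like level in 4 of 8 (*Tdc2*, *Tbh*, *DAT* and *SerT*), against 31.1% of all genes. That count depended on the count minimum: set on the mean count of a gene, it left 1 of 8, *Tbh*, above the trend. Leaving out a replicate gave 3 to 5 of 8, and without replicate 3 *Tbh* was not among them.

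In 3 genes 1 replicate lay so far from the others that its distance to the nearest of them, as a part of the whole range, exceeded the 95% critical value of Dixon's test for 4 values. These were *ple* and *Ddc*, highest in replicate 4, and *Tbh*, highest in replicate 3. Some replicate was this far off in 5.16% of all genes, replicate 4 as the highest in 0.684% and replicate 3 as the highest in 0.774%. With TMM scaling or the size factors of DESeq2 the *ple* and *Ddc* values of replicate 4 were still the highest, but the distances fell to between 0.656 and 0.804 of the range, under the critical value. That of *Tbh* stayed above it, at 0.867 and 0.869.

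Markers of other tissues did not all move the same way. In replicate 4 the fat body list summed to 2346 CPM, against 941 to 1321 CPM in the other replicates, with 2 of its 4 genes highest there. That sum was mostly *apolpp*, at 2170 CPM, while *to* and *Lsp2* were highest in replicate 3, at 111 and 78.3 CPM. The neuron list summed to its lowest value in replicate 4, 2802 CPM, and to its highest in replicate 3, 4112 CPM, but the sodium channel gene *para* set both. Without *para* the neuron sums were 2938, 2223, 2728 and 2546 CPM, and of the 6 genes 2 were highest and 2, *brp* and *cpx*, lowest in replicate 3. Hemocyte genes summed to 391 CPM in replicate 3 against 134 to 233 CPM, with 2 of 4 genes, *PPO1* and *PPO2*, highest there. *Hml* went the other way, lowest in replicate 3 at 6.28 CPM against 19.3 to 27.5 CPM, and *NimC1* was highest in replicate 1. Other markers were lowest in replicate 3, as *Vmat* was. They were 3 of 5 glial genes and 4 of 5 muscle genes, against 43.7% of all genes above the count minimum. Of the glial genes, *alrm* was at 3.54 CPM there against 39.5 to 53.0 CPM, while *nrv2* and *Eaat1* were lowest in replicate 2. The muscle sum, from 4014 CPM in replicate 4 to 9032 CPM in replicate 2, was mostly *Mlc2*, and without it the other muscle genes summed to 1923, 1365, 683 and 1173 CPM. The part of these markers in the values of *ple*, *Ddc*, *Tbh* and *Vmat* was not tested. When levels were set against the neuron list or against *elav*, a neuronal RNA-binding protein gene, replicate 4 remained the highest for *ple* and *Ddc*, replicate 3 the highest for *Tbh* and the lowest for *Vmat*.

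The mean levels gave the order *Vmat*, *Ddc*, *ple*, *Tbh*, *SerT*, *Trhn*, *Tdc2*, *DAT*. Of the 28 pairs of genes, 21 kept the same order in all 4 replicates. Among the 7 pairs of neighbours in that order, only *Vmat* over *Ddc* and *Ddc* over *ple* did so. *ple* over *Tbh*, *Tbh* over *SerT*, *SerT* over *Trhn* and *Trhn* over *Tdc2* held in 3 of 4 replicates, and *Tdc2* over *DAT* in 2 of 4. From *ple* downwards, no gene was separated from the next beyond the spread between replicates. Without replicate 3 *SerT* passed *Tbh*, and without replicate 4 *Trhn* passed *SerT*.

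Ratios of 2 genes within 1 library do not depend on how the library is scaled, and 9 pairs linked by function were compared in this way. In 8 of the 9 the same gene was higher in all 4 replicates, which gives p = 0.13 in a two-sided exact sign-flip permutation test, the smallest value that 4 replicates allow, and p = 0.141 after Benjamini-Hochberg adjustment over the 9 pairs. No ratio could therefore pass a threshold of 0.05, and the sizes below are descriptions with their spread. The ninth pair was *Trhn* and *SerT*, with a mean log2 ratio of −0.29 ± 1.2 (SD, n = 4) and an exact permutation p of 0.625.

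*Vmat* exceeded both reuptake transporters by a wide margin. Its mean log2 ratio to *SerT* was 3.85 ± 0.56 (SD, n = 4), and its ratio in the 4 replicates was 21.7, 15.0, 15.4 and 8.52. Its mean log2 ratio to *DAT* was 5.64 ± 1.15 (SD, n = 4), with ratios of 39.0, 160, 37.8 and 25.9, the largest resting on the 13 *DAT* counts of replicate 2. *Vmat* loads dopamine, serotonin, tyramine and octopamine, whereas *DAT* and *SerT* each take up one amine. The part of this in the ratios was not tested. Between the reuptake transporters, *SerT* was above *DAT* in 4 of 4 replicates, with a mean log2 ratio of *DAT* to *SerT* of −1.79 ± 1.12 (SD, n = 4).

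The enzymes ran the other way. *ple*, the first step towards dopamine, was above *Trhn*, the first step towards serotonin, in 4 of 4 replicates, with ratios of 3.20, 2.2, 2.57 and 9.99 and a mean log2 ratio of 1.87 ± 0.99 (SD, n = 4). In these counts the dopamine pathway thus had the higher first enzyme and the lower transporter. The limits given above apply: *ple* also serves the cuticle, *Trhn* overlaps *CG13912*, and *DAT* and *SerT* end close to other genes. The *ple* to *DAT* ratio was 5.39, 20.3, 12.8 and 8.27, whereas that of *Trhn* to *SerT* was 0.938, 0.868, 2.03 and 0.272. *Ddc* was below *Vmat* throughout, with ratios of 0.266, 0.245, 0.684 and 0.55.

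**Figure D3:**
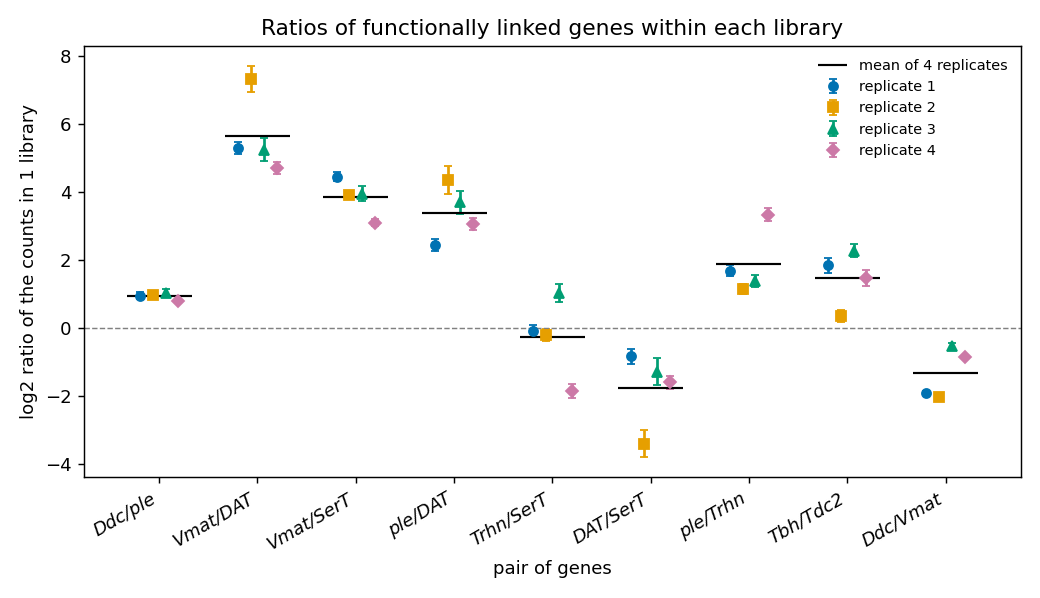
Log2 ratio of the counts of 2 functionally linked genes within each library, with 1 point per replicate, error bars of 1 standard error from counting, a bar at the mean, and the dashed line at equal counts. The *Ddc* to *ple* points lie within 0.78 to 1.01, while the 4 replicates of the other pairs are spread over more than 1 unit, and *Trhn*/*SerT* is the only pair whose points lie on both sides of 0.

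The ratio of *Ddc* to *ple* was steady. It was 1.92, 1.93, 2.01 and 1.72 in replicates 1 to 4, with a geometric mean of 1.89, although replicate 4 was 2.18 times the mean of the others for *ple* and 1.92 times for *Ddc*. The SD of its log2 value was 0.0965, next to 0.0977 from counting alone. For the other 27 pairs the SD exceeded 2 times the counting SD, and the median over the 28 pairs was 0.97. The steadiest of those 27 was *Trhn* with *Tdc2*, at 0.48, and the least steady was *Tdc2* with *DAT*, at 1.83.

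Few genes followed *Ddc* this closely. Of the other 7753 genes above the count minimum, 6 (0.0774%), *ple* among them, had a log2 ratio to *Ddc* with an SD as small as that of *ple*. This share is limited by depth, since counting alone gives genes of low level a larger SD, 0.16 for *Trhn* and 0.19 for *Tdc2*. The share among genes of like level was not computed. The other 5 were *CG13784*, *kek2*, *Mat1*, *CG2145* and *Kaz*, named here after their values were seen and not for any known link to dopamine. Seen from *ple*, 7 genes (0.0903%) were as steady as *Ddc*, *kek2* and *Kaz* again among them. The share grew when a replicate was left out, to 1.53% without replicate 1, 0.908% without replicate 2, 0.671% without replicate 3 and 0.458% without replicate 4. With 3 or 4 libraries these are descriptions, and no correlation across samples was computed.

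**Figure D4:**
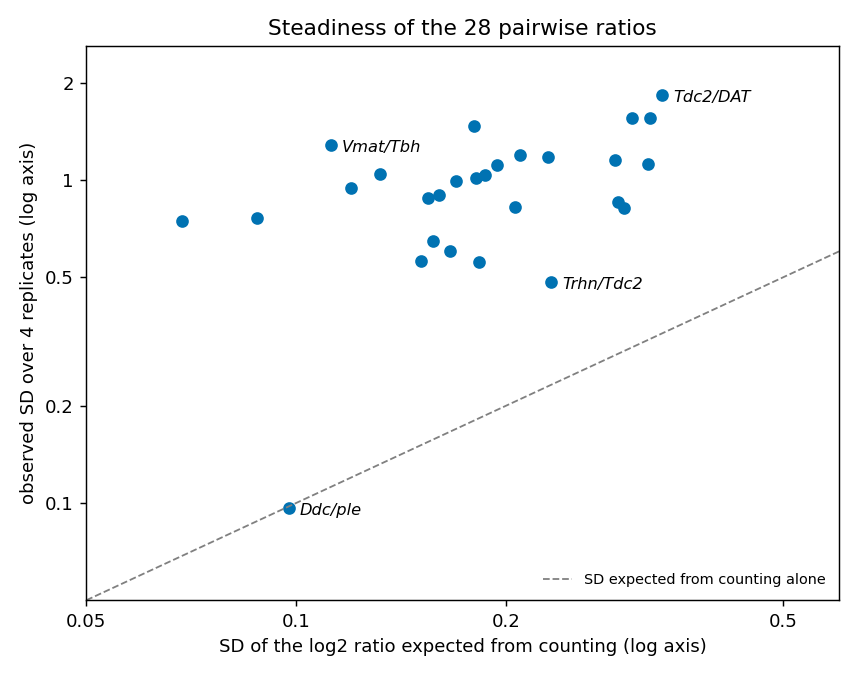
SD over the 4 replicates of the log2 ratio of each of the 28 gene pairs, against the SD that counting alone would give, both on log axes, with the dashed line where they are equal. *Ddc*/*ple* lies on the line at 0.0965 and the other 27 pairs lie above it, from 0.48 to 1.83.

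Genes that supply, regulate or break down monoamines, and transporters of other transmitters, were taken from 4 lists by function. Of 23 genes listed, 21 were in the table and 18 passed the count minimum, against 57% of all genes. The mean level of 14 was above the median of 25.4 CPM, a larger part than the 3 of 8 monoamine genes themselves.

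The hydroxylases of *ple* and *Trhn* need tetrahydrobiopterin, a pterin cofactor, and the 5 genes of its synthesis and recycling were all present. *Pu*, the GTP cyclohydrolase at the entry of the route, was at 764, 145, 126 and 264 CPM. *pr*, which acts next in the route, was at 434, 171, 144 and 176 CPM. Both were highest in replicate 1, and both also feed the pteridine pigments of the eye. The 5 photoreceptor markers were all highest in that replicate too, against 35.3% of all genes above the count minimum. So were 8 of 8 accessory gland, 5 of 6 midgut and 4 of 5 muscle genes, but 0 of 4 fat body genes. The part of eye tissue in the values of *Pu* and *pr* was not tested. The other genes of this list were not highest in replicate 1. *Sptr* was at 57.5, 63.5, 98.7 and 50.7 CPM. The recycling enzyme *Pcd* was at 123, 188, 211 and 107 CPM, and *Dhpr*, also of recycling, was at 47.5, 48.6, 53.8 and 68.1 CPM. Neither *ple* (28.7 CPM) nor *Trhn* (8.93 CPM) was highest in replicate 1.

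Among related enzymes, *Hn*, the phenylalanine hydroxylase that also acts on tryptophan outside neurons, was at 202, 171, 166 and 235 CPM, above *Trhn* in every replicate. *Tdc1*, the tyrosine decarboxylase of tissues other than neurons, had 27, 2, 4 and 37 counts, below *Tdc2* in all 4 replicates. Its high replicates were 1 and 4, as for *DAT*. *amd*, a decarboxylase-like gene of the cuticle that lies 2372 bp from *Ddc*, followed the same split at 11.4, 4.41, 5.03 and 11.7 CPM. *Hn* was also higher in replicates 1 and 4, the most alike of the libraries, and the share of all genes with this split was not computed. *Catsup*, a negative regulator of tyrosine hydroxylase, was at 50.9, 39.0, 63.1 and 48.4 CPM.

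One way in which flies inactivate dopamine is to join it to β-alanine. *e*, the synthase of that conjugate, which acts in glia and in cuticle, was at 158, 118, 107 and 215 CPM. *b*, which makes the β-alanine, was at 132, 239, 161 and 299 CPM. Both were highest in replicate 4, like *ple* and *Ddc*. This was common: 8 of the 18 related genes above the count minimum, these 2 included, and 29.1% of all genes were highest there. The SD of the log2 ratio to *Ddc* was 0.24 for *e*, 0.27 for *Dhpr*, 0.30 for *Hn* and 0.46 for *b*, each above the 0.0965 of *ple* and each at least 3 times its counting SD. *VGAT*, a transporter of another transmitter, lay between *Hn* and *b* at 0.33. *VGlut*, *Catsup*, *amd* and *VAChT* followed at 0.53 to 0.57. The share of all genes with an SD this small was not computed. *t*, the hydrolase that frees the amine again, had 13 counts in replicate 1 and 0 in replicates 2 to 4, which allows up to 0.27, 0.343 and 0.281 CPM there (3 counts). *y*, a pigment gene of the cuticle, had 2, 9, 40 and 12 counts, while *yellow-f* and *yellow-f2*, enzymes of melanin formation, were at 16.1 to 31.3 CPM and 21.3 to 35.4 CPM. *AANATL2*, a member of the arylalkylamine N-acetyltransferase family, ran from 25.0 to 65.3 CPM.

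**Figure D5:**
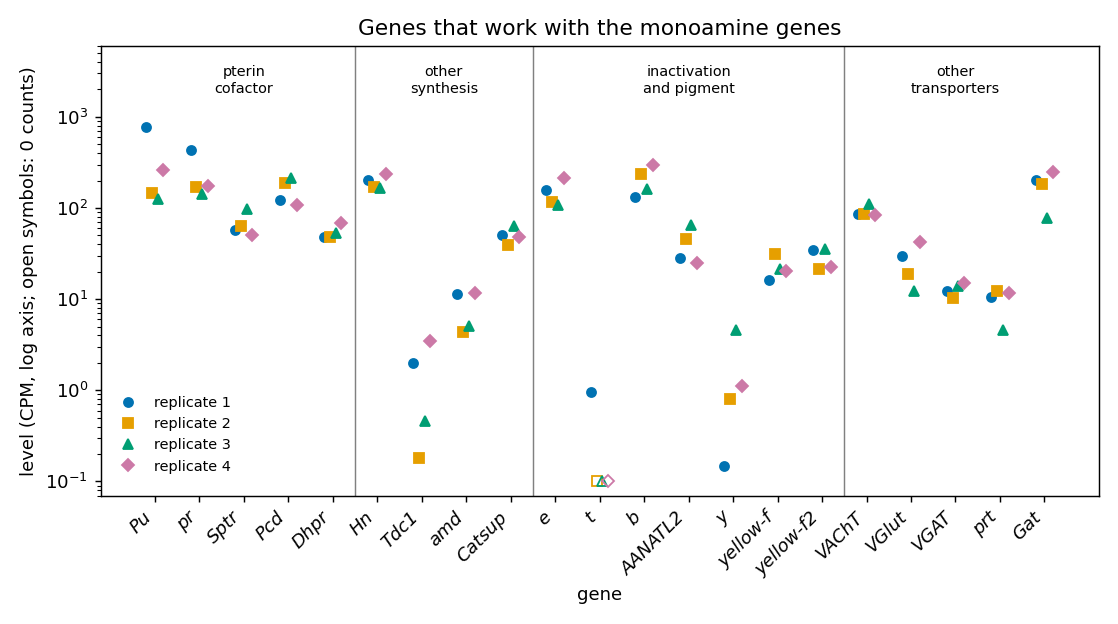
Level in CPM on a log axis of 21 genes of cofactor supply, other synthesis, inactivation and pigment, and other transmitter transporters, with 1 point per replicate and open symbols at the foot for 0 counts. *Pu* and *pr* are highest in replicate 1, *Gat* and *prt* are lowest in replicate 3, and *t* has counts in replicate 1 only.

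The transporters of other transmitters place *Vmat* in context. *Vmat* was above *VAChT*, the vesicular acetylcholine transporter, in replicates 1, 2 and 4, where *VAChT* had 86.9, 86.1 and 84.2 CPM, and below its 110 CPM in replicate 3. It exceeded *VGlut*, for glutamate (12.3 to 41.9 CPM), *VGAT*, for GABA (10.3 to 15.0 CPM), and *prt*, a vesicular transporter of the mushroom bodies (4.57 to 12.1 CPM), in all 4 replicates. The low replicate 3 of *Vmat* was shared by *prt*, at 10.6, 12.1, 4.57 and 11.8 CPM, by *VGlut*, at 30.1, 18.8, 12.3 and 41.9 CPM, and by *Gat*, the GABA transporter of the plasma membrane, at 205, 182, 78.1 and 248 CPM. *VAChT* had its highest value in that replicate. Of all genes above the count minimum, 43.7% were lowest in replicate 3, so a low value there was common.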

How the data were processed

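RNA of cross-linked head powder (10 ng) was made into QuantSeq REV libraries. The authors trimmed reads with fastp, mapped them to dm6 with STAR 2.6.1b without spliced alignment and deposited raw featureCounts counts per gene, with replicates kept apart. For its RNA-seq the study names an Ensembl annotation. For the 3′-seq, the annotation, the use of strand and the handling of multi-mapped reads are not given in the sources used here, nor is whether the study's filter against internal priming touched the gene counts. Identifiers were matched to Ensembl release 115 on dm6, which gave the coordinates.

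Counts were divided by library totals. Log2 ratios used a pseudocount of 0.5. Spread came from edgeR 4.0.16 in R 4.3.3 (TMM, intercept only, at least 10 counts in every replicate), which was tested on simulated data. Alternatives were TMM, DESeq2 1.42.0 size factors, the count minimum, a pseudocount of 1, the ratio of mean levels, and each replicate left out. Scaling to neuron markers or *elav* was added after seeing the data. Tables were handled in pandas 2.3.3 under Python 3.11.15, with numpy 2.4.6.

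The 8 members, the genes of the lists and the genes overlapping a member or next to its end could be named. Any other gene is marked. Members and lists were chosen with earlier results of these data known. 2 listed genes of dopamine inactivation and pigment and 1 neuron marker were not analysed here.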

Additional observations from a re-analysis of the deposited data

Results flagged for a closer look

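A replicate far from the rest was looked for in 52 sets of 4 values: the 8 monoamine genes, their sum, 21 related genes, 9 ratios and 13 list sums. It was found in 9, where chance would give about 1 in 20, or 2.6 sets, if the sets were independent. They are not, since all come from the same 4 libraries and the sums and ratios reuse the same genes. The 9 therefore cannot be tested against the 2.6. The distance from that replicate to the nearest other, as a part of the whole range, is given for each. It was 0.879 for *ple* and 0.854 for *Ddc*, both highest in replicate 4. It was 0.897 for *Tbh*, highest in replicate 3 at 34.8 CPM against 12.9 to 15.2 CPM. It was 0.887 for *pr*, highest in replicate 1, and 1 for *t*, whose 13 counts were all in replicate 1. For *VAChT*, highest in replicate 3, it was 0.898, although its replicates differed little, from 84.2 to 110 CPM. Among the list sums it was 0.939 for the pterin cofactor genes, 0.924 for the midgut genes and 0.835 for the accessory gland genes, all highest in replicate 1.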

How the results depend on the processing

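Changes of scaling, count minimum and pseudocount, and leaving out each replicate, kept 95 values of the main results and 84 of other genes and lists within limits, which were the spread between replicates for levels, the sign for ratios and 1.5 times for counts. The exceptions were these. With TMM scaling or DESeq2 size factors 1 of the 8 genes, *Tbh*, in place of 3 had a replicate far from the others, *ple* and *Ddc* being lost. When all genes with at least 1 count were the background, 5 of the 8 genes lay above the median instead of 3. Without replicate 4 the log2 ratio of *Trhn* to *SerT* was 0.24, the opposite sign (range −0.72 to 0.24 over the replicates left out). The common coefficient of variation was 0.403, and 0.605 when the minimum of 10 was set on a gene's mean count, which takes in genes near 0 in some replicate (0.374 to 0.425 with a replicate left out). With that minimum the genes with a spread above the trend fell from 4 to 1. Depth limited *DAT* most, with 13 counts in replicate 2. No paired analysis was possible because all libraries belong to 1 group.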
